A study of Mus musculus with 16 samples.

Results

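Glial transcripts were measured in RiboTag libraries of dopaminergic neurons as 9 marker genes, 4 of oligodendrocytes (Mbp, Mobp, Mag and Cnp) and 5 of astrocytes (Gfap, Aqp4, Slc1a2, Slc1a3 and Gja1). Each symbol matched 1 of the 25006 Ensembl identifiers in the count files, and no measured value enters the rule, although earlier results of these data were known when it was set. RiboTag is a ribosomal protein with an epitope tag, here encoded by a virus and switched on by Cre. Antibody-coated beads pull the tagged ribosomes out of the tissue homogenate together with bound mRNA, and transcripts of cells that make no tag can be carried along. The libraries came from the substantia nigra of 8 control mice, which were DAT-Cre +/-, and 8 MCU-KO mice, which were DAT-Cre+/- MCU fl/fl, at postnatal day 45 and 30 days after injection of the vector. Each mouse gave 1 library, so p-values measure the spread between mice, which includes that between preparations. Mice of both genotypes thus carried 1 Cre allele driven from the dopamine transporter gene and received the same vector. According to the paper, the control mice came from a separate cross without the floxed Mcu line. Genotype and breeding line therefore cannot be told apart here. The floxed Mcu allele was present only in MCU-KO mice, in which Cre removes Mcu from cells that express the dopamine transporter, which glial cells are not known to do. No library of the unprecipitated tissue was analysed here, so a level is an amount in the precipitate and not an enrichment.

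Oligodendrocytes wrap axons in myelin, a stack of compacted membrane. Mbp encodes myelin basic protein, which holds the membrane layers together, Mobp encodes a further protein of compact myelin, Mag encodes an adhesion protein at the contact between myelin and axon, and Cnp encodes a phosphodiesterase of the uncompacted myelin. Astrocytes take up glutamate and buffer water and potassium around synapses and vessels. Slc1a2 and Slc1a3 encode the glial glutamate transporters GLT-1 and GLAST, Aqp4 the water channel of astrocyte end-feet, Gja1 the gap junction protein connexin 43, and Gfap the intermediate filament protein that rises in reactive astrocytes. None of these genes is a recognized marker of dopaminergic neurons, although mRNA of Slc1a2 is also known from some neurons.

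The start-site windows of 4 members are printed because counts of Mobp and Cnp, and of Cnp and Slc1a3, varied together across mice, as described below, while Gfap had the highest coefficient of variation. Each window is 300 bases of RefSeq sequence on GRCm38.p6, from 250 bases before to 50 bases after an annotated start, on the strand of the gene. Capitals mark matches, on either strand, to ACAAAG, the core bound by SOX factors such as the oligodendrocyte factor SOX10, or to TTCNNNGAA, a site of STAT factors.
Mobp, chr9:120149492-120149791, plus strand: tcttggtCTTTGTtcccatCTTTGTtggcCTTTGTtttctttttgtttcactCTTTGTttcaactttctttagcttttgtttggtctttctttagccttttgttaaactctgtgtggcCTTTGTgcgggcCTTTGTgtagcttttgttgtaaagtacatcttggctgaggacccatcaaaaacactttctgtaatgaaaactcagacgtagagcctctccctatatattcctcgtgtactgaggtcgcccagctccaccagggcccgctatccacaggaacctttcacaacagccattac
Cnp, chr11:100574689-100574988, plus strand: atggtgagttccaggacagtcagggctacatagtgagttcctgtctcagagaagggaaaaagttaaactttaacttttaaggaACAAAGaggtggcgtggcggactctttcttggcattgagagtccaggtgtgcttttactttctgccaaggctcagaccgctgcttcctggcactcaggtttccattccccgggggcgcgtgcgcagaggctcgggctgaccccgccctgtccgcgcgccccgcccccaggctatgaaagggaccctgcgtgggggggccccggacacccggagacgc
Gfap, chr11:102897151-102897450, minus strand: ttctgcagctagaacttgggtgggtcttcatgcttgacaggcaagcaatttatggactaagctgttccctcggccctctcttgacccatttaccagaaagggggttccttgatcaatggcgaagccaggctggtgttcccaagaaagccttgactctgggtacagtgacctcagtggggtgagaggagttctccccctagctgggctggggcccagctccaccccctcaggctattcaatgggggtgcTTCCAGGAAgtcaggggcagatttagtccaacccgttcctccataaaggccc
Slc1a3, chr15:8710758-8711057, minus strand: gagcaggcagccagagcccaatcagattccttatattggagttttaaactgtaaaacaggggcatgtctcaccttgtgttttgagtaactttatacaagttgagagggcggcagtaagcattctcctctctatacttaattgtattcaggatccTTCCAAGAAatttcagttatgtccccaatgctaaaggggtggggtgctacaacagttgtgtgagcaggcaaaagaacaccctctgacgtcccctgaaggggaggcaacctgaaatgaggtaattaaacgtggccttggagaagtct
The Mobp window held 6 matches to ACAAAG and the Cnp window 1, and the Gfap and Slc1a3 windows each held 1 match to TTCNNNGAA and 0 to ACAAAG. Members whose windows are not printed did not follow this split. Each of the 3 windows of Mag, an oligodendrocyte gene, held 1 match to TTCNNNGAA, and some also held ACAAAG. The windows of the astrocyte genes Slc1a2 and Gja1 held 0 matches to either. Windows of Mbp and Aqp4 are not given here, so the motifs cannot be said to divide the members by cell type. Of 32544 windows of this length, 18.7% held ACAAAG and 8.33% held TTCNNNGAA. A match is a run of letters and says nothing of binding in these cells.

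Between 18999107 and 22016362 reads per control mouse and between 14129527 and 20582204 per MCU-KO mouse were counted on genes, the lowest total being that of MCU-KO mouse 8. Levels are given as CPM, counts scaled to a common library total, in which 3 counts, the detection limit used here, were worth 0.136 to 0.212 CPM. Mcu, the deleted gene, had between 6.25 and 43.1 CPM in control mice and between 0.295 and 21.2 CPM in MCU-KO mice, and the genotypes overlapped. In edgeR, Mcu fell short of the threshold, with a log2 difference of -1.19 between MCU-KO and control (95% interval -2.41 to 0.04, adjusted p = 1.00). The paper verified the knockout by other means, with qRT-PCR for Mcu on RiboTag RNA and with imaging of mitochondrial calcium. Of the dopaminergic markers, Th, which encodes the rate-limiting enzyme of dopamine synthesis, was higher per exon length than 99.98% of the 12390 genes tested, and Slc6a3, Slc18a2 and Ddc were each higher than at least 98.7%. Glial transcripts were nevertheless counted in all 16 libraries: each of the 9 members had counts in every mouse, with 13 in the lowest case.

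The members differed widely in amount. Mbp (chromosome 18, 82475146 to 82585637 of GRCm38) ranged from 1337 over a median of 1770 to 2637 CPM in control mice and from 1561 over 1891 to 2675 CPM in MCU-KO mice. Its counts lay above those of 99.8% of the genes tested and were of the order of Slc18a2, the vesicular monoamine transporter, which ranged from 1391 to 2475 CPM over all mice. Mobp (chromosome 9, 120149707 to 120181484) ranged from 384 over 505 to 732 CPM in control mice and from 372 over 574 to 824 CPM in MCU-KO mice. Cnp (chromosome 11, 100574904 to 100591729) had the narrowest spread of the 9, with 212, 296 and 371 CPM as lowest, median and highest control values and 225, 274 and 403 CPM in MCU-KO. Mag (chromosome 7, 30899176 to 30914873) ranged from 45.8 over 79.9 to 128 CPM in control mice and from 68.4 over 85.7 to 121 CPM in MCU-KO mice. For each of these 4 genes the genotypes overlapped over most of their range, and control mouse 7 held the lowest value of Mbp, Mag and Cnp.

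Among the astrocyte genes, Slc1a2 (chromosome 2, 102658659 to 102790784) had by far the most counts, from 209.8 over 308 to 429 CPM in control mice and from 287 over 394 to 508 CPM in MCU-KO mice. Aqp4 (chromosome 18, 15389496 to 15410982) ranged from 18.1 over 77.4 to 90.3 CPM in control mice and from 32.5 over 58.9 to 128 CPM in MCU-KO mice. Gfap (chromosome 11, 102887336 to 102900912) ranged from 10.1 over 35.6 to 152 CPM in control mice and from 8.22 over 50.9 to 169.6 CPM in MCU-KO mice. The highest Gfap value was thus 20.6 times the lowest, and 3 mice (control mouse 4 and MCU-KO mice 4 and 6) had at least 142 CPM while no other mouse exceeded 63.7 CPM. Gja1 (chromosome 10, 56377330 to 56402513) ranged from 16.6 over 30.7 to 76.4 CPM in control mice and from 14.9 over 39.7 to 132 CPM in MCU-KO mice. Slc1a3 (chromosome 15, 8634124 to 8710764) was the lowest, with 0.625, 20.05 and 49.3 CPM as lowest, median and highest control values and 8.07, 29.1 and 75.4 CPM in MCU-KO. MCU-KO mouse 4 was the highest of all mice for Aqp4, Slc1a3 and Gja1.

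**Figure D1:**
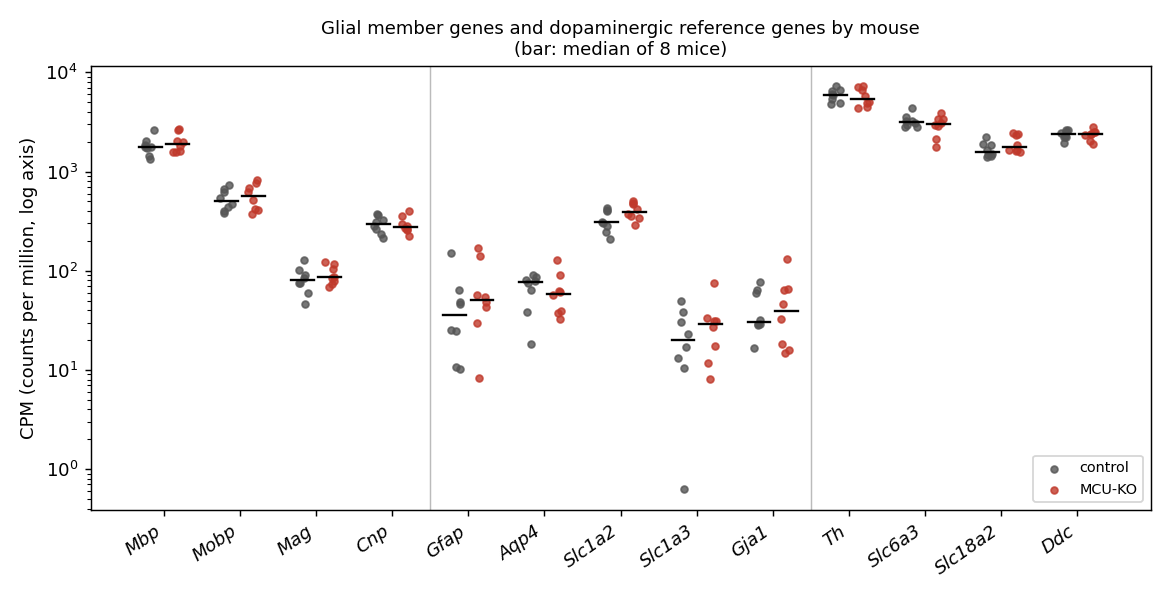
CPM of the 9 members and of 4 dopaminergic reference genes on a log axis, with 1 point per mouse, grey for control and red for MCU-KO, and a bar at the median of 8 mice. The oligodendrocyte genes and Slc1a2 lie in narrow bands, whereas Gfap spans from 8.22 to 169.6 CPM and Slc1a3 from 0.625 to 75.4 CPM.

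To compare levels between genes, CPM were divided by the exon length in kilobases, taken over all annotated exons of a gene. Mbp was highest, with 224 ± 49.1 CPM per kb (SD, n = 16 mice), followed by Cnp with 80.9 ± 15.2 and Mobp with 80.9 ± 21.8 CPM per kb (SD, n = 16). Slc1a2 had 27.8 ± 6.60 CPM per kb, Mag 21.4 ± 5.56, Gfap 13.8 ± 12.1, Aqp4 10.4 ± 4.49, Gja1 4.43 ± 3.02 and Slc1a3 3.07 ± 2.14 CPM per kb (SD, n = 16). Th had 2454 ± 426 CPM per kb (SD, n = 16). Cnp and Mobp did not differ beyond their spread, with Cnp the higher in 8 of 16 mice, nor did Gfap and Aqp4, with Gfap the higher in 8 of 16 mice, or Gja1 and Slc1a3, with Gja1 the higher in 11 of 16 mice (exact sign-flip permutation test, two-sided, adjusted p over the 8 neighbours = 0.845, 0.904 and 0.143). The other 5 steps in this order held in at least 13 of 16 mice, with adjusted p between 8.14e-05 and 0.00337 in the same exact test. A gene's exon length is the same divisor in every mouse, so these tests do not cover an error in it. It ran from 3639 bases for Cnp to 13133 for Slc1a2, and the transcripts present can be shorter. Per length, the myelin genes Mbp, Cnp and Mobp each lay above Slc1a2, the highest of the 5 astrocyte members. Without division by length, Cnp lay below Slc1a2, with means of 295 and 365 CPM.

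The spread between mice was far larger than counting error. The coefficient of variation of CPM over the 16 mice was 18.8% for Cnp, 21.9% for Mbp, 23.8% for Slc1a2, 26.0% for Mag and 27.0% for Mobp. It was 43.0% for Aqp4, 68.2% for Gja1, 69.8% for Slc1a3 and 87.5% for Gfap. Counting error alone accounts for between 0.53% in Mbp and 8.53% in Slc1a3. edgeR's estimate of the variation between mice, with genotype in the model, was set beside its trend over all genes of the same level. It was 70.0% against 34.2% for Gfap, 72.3% against 51.9% for Slc1a3, 56.1% against 38.6% for Gja1 and 42.1% against 32.5% for Aqp4. Mag and Cnp lay below their trend, with 27.0% against 28.3% and 19.0% against 20.3%. Th, by comparison, had a coefficient of variation of 17.4%.

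Summed over the genes of each cell type, the oligodendrocyte members made up 2727 ± 552 CPM in control mice and 2944 ± 669 CPM in MCU-KO mice (SD, n = 8 each). The astrocyte members made up 504 ± 136 CPM in control mice and 615 ± 171 CPM in MCU-KO mice (SD, n = 8 each). All 9 genes together took between 0.229% and 0.480% of the counted reads of a mouse, with a median of 0.312%. Relative to the summed CPM of Th, Slc6a3, Slc18a2 and Ddc, they came to between 16.5% in control mouse 7 and 47.6% in MCU-KO mouse 6. In a bulk precipitate such as this one, more glial cells, more glial RNA per cell, more carry-over and less tagged RNA cannot be told apart.

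The mice at both ends were the same for the 2 cell types, with exceptions between. MCU-KO mice 6 and 4 had the highest oligodendrocyte totals, 3948 and 3901 CPM, and were also the highest for the astrocyte total, with 839 and 896 CPM. Control mouse 7 was the lowest for both, with 1980 and 312 CPM. Control mouse 3 followed the first 2 mice in the oligodendrocyte total, with 3831 CPM, and was the fifth highest in the astrocyte total, with 635 CPM, and control mouse 8 stood sixth in the former, with 2982 CPM, but next to last in the latter, with 322 CPM. The composition of the oligodendrocyte total was nearly constant, Mbp making up between 62.2% and 72.4% of it. That of the astrocyte total was less so, Slc1a2 making up between 46.6% in MCU-KO mouse 4 and 78.5% in MCU-KO mouse 5. MCU-KO mouse 6 had the lowest total of the 4 dopaminergic genes, 10051 CPM, and MCU-KO mouse 7 the highest, 16365 CPM.

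**Figure D2:**
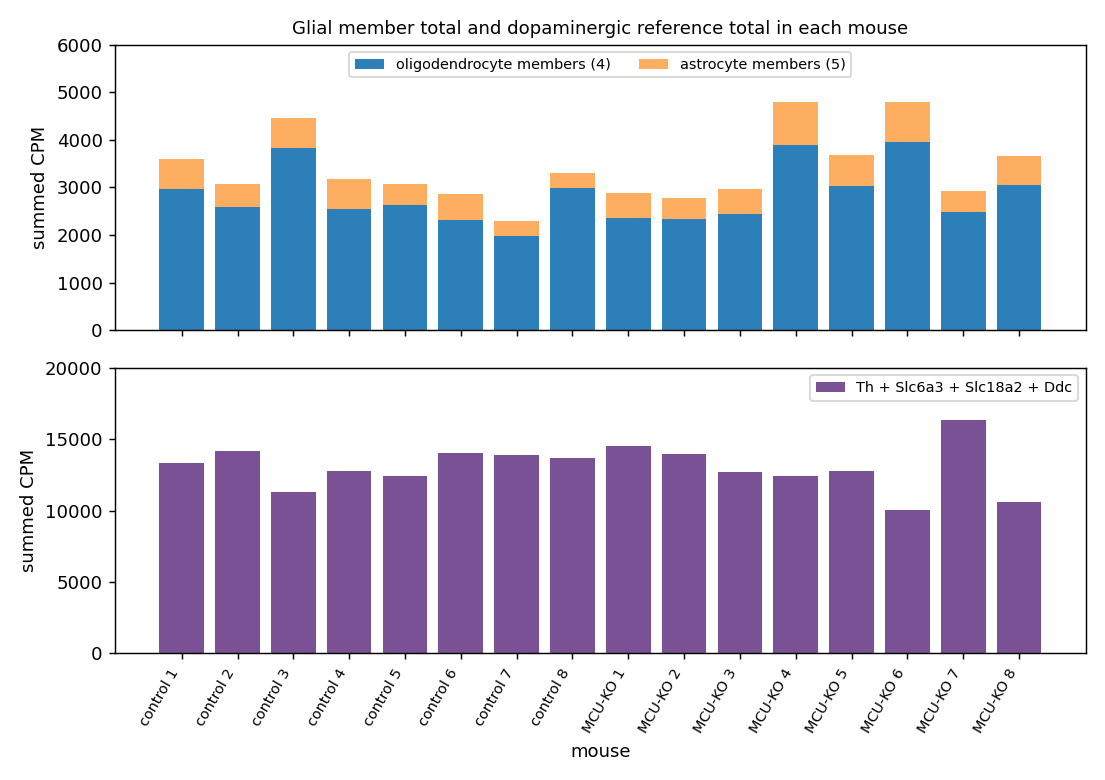
Summed CPM in each of the 16 mice, above for the oligodendrocyte members (blue) with the astrocyte members stacked on them (orange), below for Th, Slc6a3, Slc18a2 and Ddc (purple). Glial totals are highest in MCU-KO mice 4 and 6, at 4797 and 4787 CPM, and lowest in control mouse 7, at 2292 CPM.

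Whether the amount of glial transcript differed between the genotypes was tested gene by gene with edgeR's quasi-likelihood test over all 12390 genes that passed the filter on low counts. None of the 9 members had an adjusted p under 0.05 (edgeR with Benjamini-Hochberg adjustment), where 22 of all genes did, or 0.178%, with 0.0888% called higher and 0.0888% called lower in MCU-KO. The same count was 0 with DESeq2 and with limma-voom. An unadjusted p under 0.05 was found for 1 member, where 4.41% of all genes had one. The genotypes overlapped in all 9 members, while 0.266% of all genes did not overlap.

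The estimates leaned slightly upward in MCU-KO, with 7 of 9 log2 fold changes above 0 and a median of 0.15. Over all 12390 genes tested, 6241 were above 0, with a median of 0.00. The members varied together across mice, as described below, so their signs are not independent. Slc1a2 was the member at an unadjusted p under 0.05, with 325 ± 80.9 CPM in control and 404 ± 77.2 CPM in MCU-KO mice (SD, n = 8 each), which is 0.31 higher on the log2 scale (standard error 0.15, 95% interval 0.01 to 0.61) with an adjusted p of 1.00 from edgeR. The log2 fold change was 0.12 for Mbp (95% confidence interval -0.15 to 0.38), 0.11 for Mobp (-0.23 to 0.45), 0.15 for Mag (-0.23 to 0.53) and -0.01 for Cnp (-0.27 to 0.25). The interval lay within 1 log2 unit of 0 for 6 of 9 members, all but Gfap, Slc1a3 and Gja1. The intervals were -0.56 to 1.61 for Gfap, -0.70 to 0.55 for Aqp4, -0.75 to 1.46 for Slc1a3 and -0.64 to 1.06 for Gja1. Without MCU-KO mice 4 and 6, the log2 fold changes of Mbp, Mobp, Gfap, Slc1a3 and Gja1 turned negative, at -0.03, -0.06, -0.23, -0.10 and -0.37, and those of Slc1a2 and Mag stayed positive, at 0.27 and 0.06. These mice had the highest glial totals and were chosen after the data were seen. Lower estimates without them follow from that choice and decide nothing about the genotypes.

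**Figure D3:**
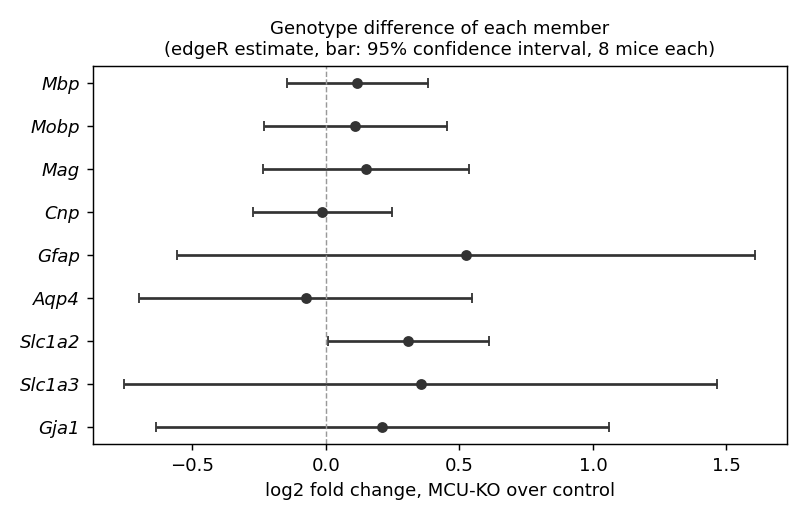
Log2 fold change of each member between MCU-KO and control with its 95% confidence interval from edgeR, 8 mice per genotype. All intervals include 0 except that of Slc1a2, 0.01 to 0.61, and those of Gfap and Slc1a3 are the widest.

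From mouse to mouse, the members varied in the same direction. After the genotype means were subtracted from log2(CPM + 1), Pearson's r was above 0 in 36 of 36 member pairs, with a median of 0.46. The median was 0.64 among the 6 oligodendrocyte pairs, 0.28 among the 10 astrocyte pairs and 0.42 among the 20 pairs of an oligodendrocyte with an astrocyte gene. The strongest pair was Mbp and Mobp, with r = 0.83 and Spearman's rho = 0.83 (permutation test, two-sided, adjusted p over the 36 pairs = 0.00324 and 0.00468). Without the 2 mice farthest from the median of Mbp, r was 0.77, and it was 0.80 within control and 0.85 within MCU-KO mice. Cnp and Slc1a3 had r = 0.74 and rho = 0.84 (permutation test, adjusted p = 0.0155 and 0.00468), and r = 0.85 without the 2 mice farthest in Cnp.

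In all, 12 of the 36 pairs had an adjusted p under 0.05 by Pearson's r and 10 by Spearman's rho, 9 of them by both (permutation test). The 10 pairs beyond the 2 named stood close to the threshold, and with library sizes scaled by TMM only those 2 passed. Mobp and Cnp were among the 10, with r = 0.62 (permutation test, adjusted p = 0.0464; rho = 0.63, adjusted p = 0.0492). Without MCU-KO mice 4 and 6, the median r fell to 0.25 over all pairs, 0.47 among oligodendrocyte pairs, 0.11 among astrocyte pairs and 0.18 between the cell types, and r was below 0 in 5 of the 36 pairs, among them Slc1a3 and Gja1 at -0.18. Mbp with Mobp and Cnp with Slc1a3 also passed with any 1 mouse left out and without MCU-KO mice 4 and 6. Gfap, the gene with the highest coefficient of variation, had r = 0.62 with Aqp4 (permutation test, adjusted p = 0.0464, and rho = 0.61, adjusted p = 0.0536). Its r was 0.24 with Slc1a2 (permutation test, adjusted p = 0.433) and 0.21 with Slc1a3 (adjusted p = 0.501). Between 2 and 12 pairs passed with 1 mouse left out, the lowest number without control mouse 1, 3 or 7 or MCU-KO mouse 1, 2, 3, 4, 6 or 8. All values of a mouse come from 1 library and are shares of its total.

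Against the dopaminergic genes, the members went in the opposite direction to Th. Pearson's r with Th was below 0 for 9 of 9 members, with a median of -0.70, and 5 of them had an adjusted p under 0.05 over the 36 pairs of a member with Th, Slc6a3, Slc18a2 or Ddc (permutation test). This family of pairs was chosen after the totals had been seen. Mobp had r = -0.87 and rho = -0.91 with Th (permutation test, adjusted p = 0.00252 and 0.00144), r = -0.82 without the 2 mice farthest in Mobp, and r = -0.67 within control and -0.99 within MCU-KO mice. Slc1a2 had r = -0.82 and rho = -0.78 (permutation test, adjusted p = 0.00252 and 0.00522), with -0.95 within control and -0.77 within MCU-KO mice. Cnp, Mbp and Mag followed, with r of -0.74, -0.71 and -0.70 and adjusted p of 0.0168, 0.0256 and 0.0175 (permutation test).

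Whether the relations with the other dopaminergic genes differ from that with Th was not tested. The median r of the 9 members was -0.34 with Ddc and -0.13 with Slc6a3, the dopamine transporter, and 0.32 with Slc18a2, and 0 of these 27 pairs passed the adjustment. For Slc1a2, r was 0.57 with Slc18a2 (permutation test, adjusted p = 0.115) beside -0.82 with Th. Without MCU-KO mice 4 and 6, or without control mouse 7, only Mobp and Slc1a2 passed with Th, and r with Th stayed below 0 for all 9 members in both cases.

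**Figure D4:**
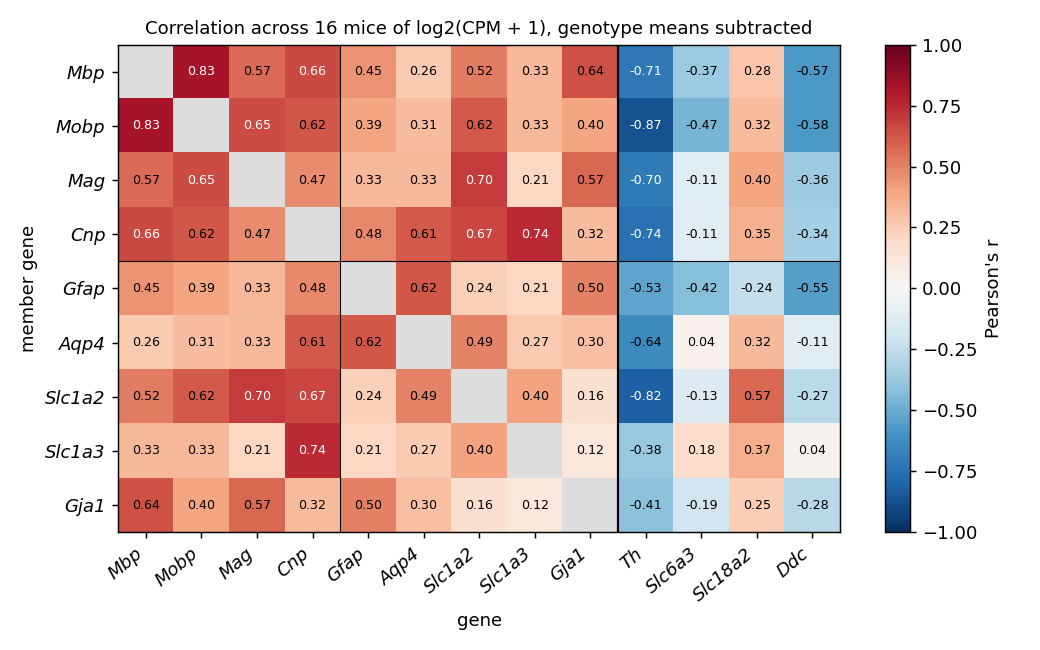
Pearson's r across 16 mice between members (left of the thick line) and between each member and Th, Slc6a3, Slc18a2 and Ddc (right of it), from -1 in blue to 1 in red, with genotype means subtracted from log2(CPM + 1). The member block is red throughout, the Th column is blue throughout, and the Slc18a2 column is red but for Gfap at -0.24.

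**Figure D5:**
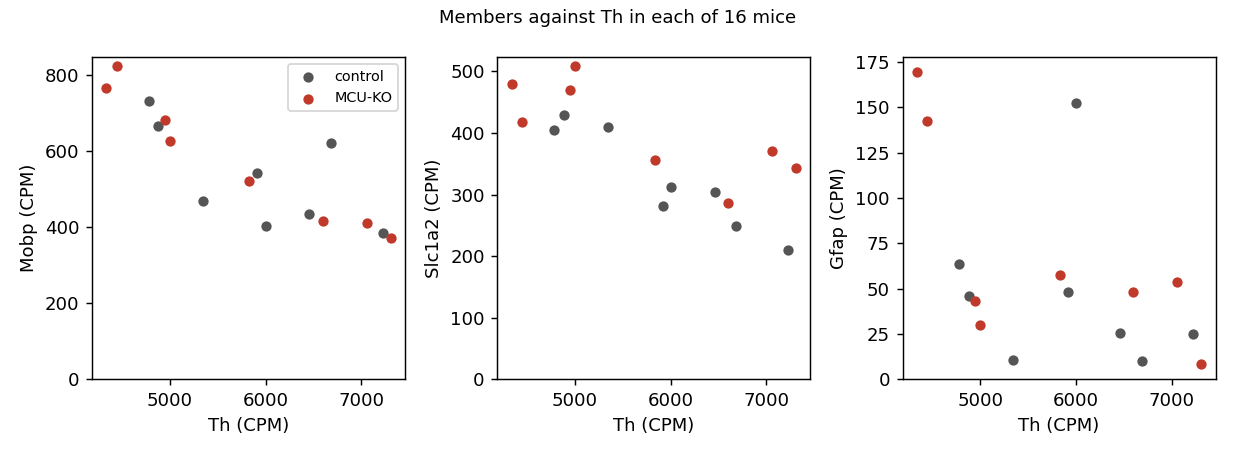
CPM of Mobp, Slc1a2 and Gfap against CPM of Th, with 1 point per mouse, grey for control and red for MCU-KO. Mobp and Slc1a2 fall as Th rises (r = -0.87 and -0.82 on the log scale), whereas Gfap is scattered (r = -0.53).

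To see which other genes varied with the oligodendrocyte members, their mean log2(CPM + 1) was entered beside genotype in the edgeR model. Of the 12381 genes other than the members, 6 had an adjusted p under 0.05, or 0.0485%, of which 3 are given here. The lowest p was that of Th, which fell by 0.85 on the log2 scale (standard error 0.11, adjusted p = 0.00126 from edgeR) per unit of the oligodendrocyte level. Sparc, a secreted matrix protein of glial and vascular cells, rose by 1.19 (standard error 0.21, adjusted p = 0.0193) and Fth1, the ferritin heavy chain, by 0.62 (standard error 0.11, adjusted p = 0.0193). Fth1 was also among the 5 genes most like the oligodendrocyte level by Pearson's r over 16 mice, with r = 0.88, as was Dbndd2 with r = 0.84. Without MCU-KO mice 4 and 6, 0 genes passed in edgeR, and 3 passed without control mouse 1, 3 or 7 or MCU-KO mouse 4. With the astrocyte level in its place, 0 of 12381 genes passed in edgeR, or 0%, with 343 rising and 391 falling at an unadjusted p under 0.05. The genes most like the astrocyte level included Epb41l3 with r = 0.85, the microglial complement gene C1qa with r = 0.84, the microglial protease Ctss with r = 0.82 and Syt4, a synaptotagmin, with r = 0.82.

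Marker genes outside the 9 were followed as lists. Of 15 further oligodendrocyte genes, such as Mog, Mal, Olig1 and Trf, 13 had a slope above 0 with the oligodendrocyte level, where 50.9% of all genes did, and 7 at an unadjusted p under 0.05, where 2.73% of all genes did. Of 15 further astrocyte genes, 14 had a slope above 0 and 6 an unadjusted p under 0.05. The same held for 11 and 4 of 11 tested microglial genes and for 8 and 2 of 9 tested genes of other neurons, such as Gad1 and Slc17a6. Of the remaining lists, 3 of 5 oligodendrocyte precursor, 4 of 6 vascular and 1 of 1 ependymal genes tested had a slope above 0, with 0 at an unadjusted p under 0.05. Of 12 dopaminergic genes, 3 had a slope above 0, and 4 fell at an unadjusted p under 0.05, where 3.34% of all genes did. With the astrocyte level, slopes above 0 were found in 15 of 15 further oligodendrocyte, 14 of 15 further astrocyte, 11 of 11 microglial, 7 of 9 other neuronal and 3 of 12 dopaminergic genes, beside 51.3% of all genes. With this level, 2.77% of all genes rose and 3.16% fell at an unadjusted p under 0.05. At that p, 4 further oligodendrocyte, 4 further astrocyte, 6 microglial and 3 other neuronal genes rose, and 5 dopaminergic genes fell.

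Between the genotypes, 0 genes of any of these lists had an adjusted p under 0.05 (edgeR). The median log2 fold change was 0.01 over the further oligodendrocyte and 0.04 over the further astrocyte genes. It was 0.50 over the microglial genes, of which 9 of 11 were above 0, where 6241 of all 12390 genes tested were. Of these, 1, C1qc, had an unadjusted p under 0.05 (log2 fold change 1.15, standard error 0.41, adjusted p = 0.849 from edgeR). Genes of a list can vary together across mice, and the lists were not followed without MCU-KO mice 4 and 6. The median was 0.42 over 5 precursor, -0.26 over 6 vascular, 0.18 over 9 other neuronal and -0.07 over 12 dopaminergic genes. Cldn10, a claudin, was the one further astrocyte gene at an unadjusted p under 0.05 (log2 fold change 0.78, standard error 0.26, adjusted p = 0.789 from edgeR).

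Per length, the further astrocyte genes Clu, which neurons also express, and Aldoc were higher than any of the 5 astrocyte members, with 162 ± 17.6 and 156 ± 30.6 CPM per kb (SD, n = 16). So were S100b and Ndrg2, with 97.8 ± 29.7 and 94.8 ± 18.3, and Glul and Ntsr2, with 33.6 ± 9.55 and 33.4 ± 9.46 CPM per kb (SD, n = 16). The rest of that list lay below Slc1a2. The highest further oligodendrocyte genes were Trf, which encodes transferrin, with 78.9 ± 22.9 and Cryab, a small heat shock protein, with 76.7 ± 21.7 CPM per kb (SD, n = 16). C1qb and Ctss, the highest of the microglial genes, had 41.2 ± 24.8 and 36.7 ± 23.9 CPM per kb (SD, n = 16). Sst and Pvalb, the highest of the other neuronal genes, had 64.97 ± 29.3 and 49.1 ± 14.5 CPM per kb (SD, n = 16). Gad2, Gad1 and Slc32a1, inhibitory markers of the same list, were lower, with 13.3 ± 6.70, 7.88 ± 2.96 and 4.71 ± 1.82 CPM per kb (SD, n = 16). C1ql1 and Gpr17, the highest of the oligodendrocyte precursor genes, had 9.74 ± 4.32 and 1.22 ± 0.954 CPM per kb and Ly6c1 and Vtn, the highest of the vascular genes, 8.43 ± 4.20 and 8.29 ± 4.34 CPM per kb (SD, n = 16). Ttr, of the choroid plexus, and Foxj1, of ciliated ependymal cells, had no counts in 10 and 3 of 16 mice.

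Some reads of the members may belong to other genes. Exons of Cnp overlap those of Dnajc7 and exons of Slc1a2 those of Gm13872 on the opposite strand, and exons of Mobp overlap Gm38642 on the same strand. The strand setting of the counting is not given in the sources used here, so these reads cannot be assigned further. Of the stretches of 50 bases in the members' transcripts, at most 1.51%, in Cnp, also occur in transcripts of other genes.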

How the data were processed

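The data used here were RNA sequences from RiboTag precipitates of 8 control and 8 MCU-KO mice, grouped by the sample titles. For its RNA sequencing, the paper reports more MCU-KO mice than these 8. The authors trimmed 3' adapters (cutadapt in the methods, Trim Galore in the submitters' processing notes), used STAR with the mm10 genome for alignment and htseq-count for Ensembl genes, and they deposited whole-number counts without normalization. Versions, strand setting and annotation release are not given in the sources used here. The counts have no molecular identifiers, so the floor of 3 counts covers counting error only.

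Symbols, positions and exon lengths came from GENCODE M21 (GRCm38, the build of mm10), and 24942 of 25006 identifiers matched. Genotypes were compared with edgeR 4.0.16 in R 4.3.3 (filterByExpr, TMM, glmQLFit, glmQLFTest) over 12390 genes, with Benjamini-Hochberg adjustment and a threshold of 0.05. The same model with the mean log2(CPM + 1) of the 4 oligodendrocyte or 5 astrocyte members as a covariate was used for the slopes. The fits were tested on simulated counts. Correlations used permutation tests with 100000 draws within genotype, and neighbours in the order of levels an exact sign-flip test. The alternatives were DESeq2 1.42.0, limma 3.58.1, other normalizations and filters, a block for the mouse number and the omission of mice. Plots and tables used Python 3.11.15, numpy 2.4.6 and pandas 2.3.3.

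The named genes were the members, 4 dopaminergic reference genes, Mcu, the 2 highest genes per length and any called gene in each of 8 marker lists, and the 5 genes most like each glial level. Genes named beyond these were chosen after their values were seen. Members and lists were chosen with earlier results of these data known. Some genes that these rules name are not reported here. Same-numbered mice of the genotypes are different animals, and their deviations from the genotype means were not correlated, so the numbers were not taken as pairs.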

Additional observations from a re-analysis of the deposited data

Results flagged for a closer look

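In 3 of 24 groups of 8 mice that were checked (9 members and 3 totals in 2 genotypes), 1 mouse lay far apart from the other 7. A chance rate of 1 in 20, or 1.2 groups, would hold for independent groups with normally spread values. The totals are sums of the members and the check used CPM without a log scale, so no excess over chance can be read from it. Gfap was 152 CPM in control mouse 4, the highest of the control mice, and the next control value was 63.7 CPM. Slc1a3 was 75.4 CPM in MCU-KO mouse 4, where the next MCU-KO value was 33.7 CPM. Gja1 was 132 CPM in the same mouse, where the next MCU-KO value was 65.9 CPM. MCU-KO mouse 4 was also the highest mouse for the astrocyte total, with 896 CPM, and its total counts of 20423939 lay within the range of the other mice.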

How the results depend on the processing

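The count of members past the threshold between genotypes was 0 in every alternative run, and the lowest adjusted p of any member was 0.335 (Slc1a2). Of 225 recomputed log2 fold changes of members, 23 changed sign. Gja1 changed sign with limma-voom (-0.039) and with the oligodendrocyte level as a covariate (-0.060), and Mobp with the astrocyte level (-0.011). Without MCU-KO mice 4 and 6, an alternative chosen after seeing the data, the values were -0.031 for Mbp, -0.064 for Mobp, -0.23 for Gfap, -0.10 for Slc1a3 and -0.37 for Gja1. With single mice left out, they ranged from -0.082 to 0.042 for Cnp, from -0.29 to 0.016 for Aqp4, from -0.0023 to 0.61 for Slc1a3 (the lowest without MCU-KO mouse 4) and from -0.18 to 0.39 for Gja1 (likewise). Gfap ranged from 0.21 without MCU-KO mouse 6 to 1.07 without control mouse 4. In place of 22 genes over the whole table, DESeq2 called 90, and the block for the mouse number 14, with 0 members. Same-numbered mice had correlations between -0.052 and 0.042, and 0 of 8 mice correlated best with their own number. The data thus gave no sign that the numbers mark pairs, and the block is shown only as an alternative.

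In place of 12 member pairs, 2 passed with TMM-scaled library sizes, 4 without subtraction of genotype means, 2 without MCU-KO mice 4 and 6, and between 2 and 12 with single mice left out. The 5 pairs of a member with a dopaminergic gene became 2 without MCU-KO mice 4 and 6 and between 2 (without control mouse 7) and 6 with single mice left out. In place of 6 genes with the oligodendrocyte level, 0 passed with the block for the mouse number, 0 with both glial levels in 1 fit, 1 with the dopaminergic total as a further covariate (both chosen after seeing the data), 0 without MCU-KO mice 4 and 6, and between 3 (without control mouse 1, 3 or 7 or MCU-KO mouse 4) and 8 with single mice left out. With the astrocyte level, 6 genes passed in place of 0 when at least 10 counts in every mouse were required, and between 0 and 1 with single mice left out. The cause of these shifts was not tested. The oligodendrocyte and astrocyte totals differed between genotypes by 0.10 and 0.29 on the log2 scale with ranges of 0.039 to 0.18 and 0.20 to 0.36 with single mice left out. Without MCU-KO mice 4 and 6, left out because of their high glial totals, the oligodendrocyte difference turned negative, at -0.045, and the astrocyte difference was 0.11. The lowest count of a member was 13, of Slc1a3 in control mouse 5, and the myelin genes had at least 870 counts, so counting error was small beside the spread between mice.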
